A study of Mus musculus with 6 samples.

Results

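The genes described here are 10 mRNAs of interleukin-2 (IL-2) receptor signalling and its STAT5 feedback, taken by gene symbol from 21899 listed genes: Il2, Il2rb, Il2rg, Stat5a, Stat5b, Cish, Socs1, Socs2, Socs3 and Pim1. Each symbol had a single identifier, and all 10 passed the low-count filter of the test. They were measured by mRNA sequencing in induced regulatory T cells (iTregs) of the mouse, in 3 KO and 3 WT samples. KO cells came from Dlst-Treg iKO mice and WT cells from iWT mice. The product of Dlst is the E2 component of 2-oxoglutarate dehydrogenase, an enzyme of the tricarboxylic acid cycle. In both groups CD4+ T cells of the spleen were kept under Treg-polarising conditions for 2 days. The cultures of both genotypes held 4-hydroxytamoxifen, an agent used to activate tamoxifen-dependent Cre, and the sort kept CD4+ cells with FoxP3-GFP and tdTomato signal. The Cre driver, the exact alleles and the age of the mice were not given in the sources used here. The labels do not say whether replicates were different mice or cultures. KO replicate 1 was the only library with the Y-linked mRNA Eif2s3y (78.2 TPM, against 0), so it was not a repeat of the other KO material. For the other libraries this is open, and the spread that the tests use may in part be technical.

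IL-2 is the cytokine on which Treg cells depend and which they make little of themselves. Its beta chain (Il2rb) and the common gamma chain (Il2rg), with an alpha chain, form the high-affinity receptor. Ligand binding brings together the kinases JAK1 and JAK3, which phosphorylate STAT5A and STAT5B, and these enter the nucleus and induce genes such as Cish and Pim1. CISH and the SOCS proteins then damp signalling at the receptor and the kinases, so their mRNAs are commonly read as feedback of cytokine signalling. In Treg cells FOXP3 represses Il2, and STAT5 is needed to keep Foxp3 expressed.

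None of the 10 mRNAs passed the test between KO and WT. The common gamma chain mRNA Il2rg lay below every WT library in all 3 KO libraries, at a fitted group difference of -13.1%. The mRNAs of the feedback inhibitors Socs1 and Socs3 lay above every WT library in all 3 KO libraries. Their fitted group differences were 19.4% and 16.6%. For Socs3 the closest libraries nearly met, with KO replicate 2 at 56.4 CPM and WT replicate 2 at 56.0 CPM. Il2rb and Stat5b differed by 0.232% and -1.14%, with 95% intervals of -6.61% to 7.57% and -9.21% to 7.64%. Il2 was the least abundant of the 10 and varied most between libraries of 1 group.

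The test was the quasi-likelihood F test of edgeR, adjusted by Benjamini-Hochberg over 12768 genes, and 0 of the 10 passed at 0.05, against 0.674% of all tested genes (0.454% higher and 0.219% lower in KO). Adjusted p ran over the 10 genes from 0.116 to 0.982 in that edgeR test. At an unadjusted p under 0.05 there were 3 of 10, against 15.1% of all tested genes. DESeq2 called 1 of the 10, Il2rg, and 527 of 13721 genes in all. Limma on log2(TPM + 1) called 0 of the 10, and 36 of 12768 genes in all. The KO and WT libraries did not overlap for 3 of 10, which held for 22.8% of all tested genes. In the direction higher in KO it was 2 of 10, against 11.9%, and in the direction lower in KO it was 1 of 10, against 10.9%. Counts of 1 to 3 genes this near the background are not a result about the 10 genes. The median log2 fold change of the 10 was 0.05, against -0.003 over all tested genes, with 6 above and 4 below 0.

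Libraries held 33590510 to 49772670 estimated counts in KO and 35647816 to 47526481 in WT. Dlst was at 125, 129 and 129 CPM (TMM-scaled counts relative to library size) in KO replicates 1 to 3 and at 161, 149 and 149 CPM in WT replicates 1 to 3. Every KO library lay below every WT library, at a log2 fold change of -0.26 that did not pass (edgeR adjusted p = 0.0894). Dlst passed with DESeq2 (adjusted p = 0.00182) and in the edgeR fit without the first replicate of both groups (-0.21, adjusted p = 0.0324). A level summed over the whole gene does not show whether the deletion took place, and the KO label rests on the submitters. Markers of the sort were detected in every library: Foxp3 was at 207 to 231 CPM in KO and 154 to 202 CPM in WT (edgeR adjusted p = 0.305), and Cd4 at 432 to 465 CPM in KO and 506 to 522 CPM in WT (edgeR adjusted p = 0.151). Of 5 Treg markers 1 passed, in the other direction from Foxp3: Ikzf2, which encodes Helios, was at 5.37 to 6.37 TPM in KO and 8.60 to 9.93 TPM in WT (edgeR adjusted p = 0.0366). The Ikzf2 call was lost in 9 of 17 alternatives, 5 of them with a single library left out (adjusted p 0.0748 to 0.155 there). The summed level of the 5 Treg markers was 1290 to 1356 TPM in KO and 1242 to 1379 TPM in WT. Most of that sum was Il2ra, at 782 to 927 TPM in KO and 798 to 961 TPM in WT, so it says little of the other markers. KO replicate 1 stood apart, with the Y-linked mRNA Eif2s3y at 78.2 TPM and at 0 in the other 5 libraries. It also had the most RNA of neutrophil markers, whose summed level over 10 genes was 862, 203 and 190 TPM in KO replicates 1 to 3 and 90.5, 19.8 and 12.9 TPM in WT replicates 1 to 3. The sum of 10 monocyte and macrophage markers was 462, 117 and 131 TPM in KO and 36.8, 24.9 and 23.9 TPM in WT. That of 5 mast cell and basophil markers was 6.0, 9.21 and 10.8 TPM in KO and 2.41, 4.19 and 1.65 TPM in WT. Each of these sums was higher in every KO library than in every WT library, so it cannot be told apart from genotype here. Of the single markers, 0 of 9 tested neutrophil genes passed between KO and WT. Of 8 tested monocyte and macrophage genes 1 passed, Mrc1 (edgeR adjusted p = 0.0449). WT replicate 1 had the highest sum of 6 B cell markers, 82.6 TPM, against 26.8 to 29.7 TPM in KO and 27.1 and 13.3 TPM in the other WT libraries. No marker of these lists was at 0 in all 6 libraries. KO replicates 2 and 3 were the closest pair, with a biological coefficient of variation of 2.97%, against 7.12 to 14.8% for the other pairs within a group. They are the whole KO group in the fit without the first replicate of both groups, which called far more genes in all than the main fit. In bulk samples fewer cells of a type and less RNA per cell cannot be told apart.

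**Figure D1:**
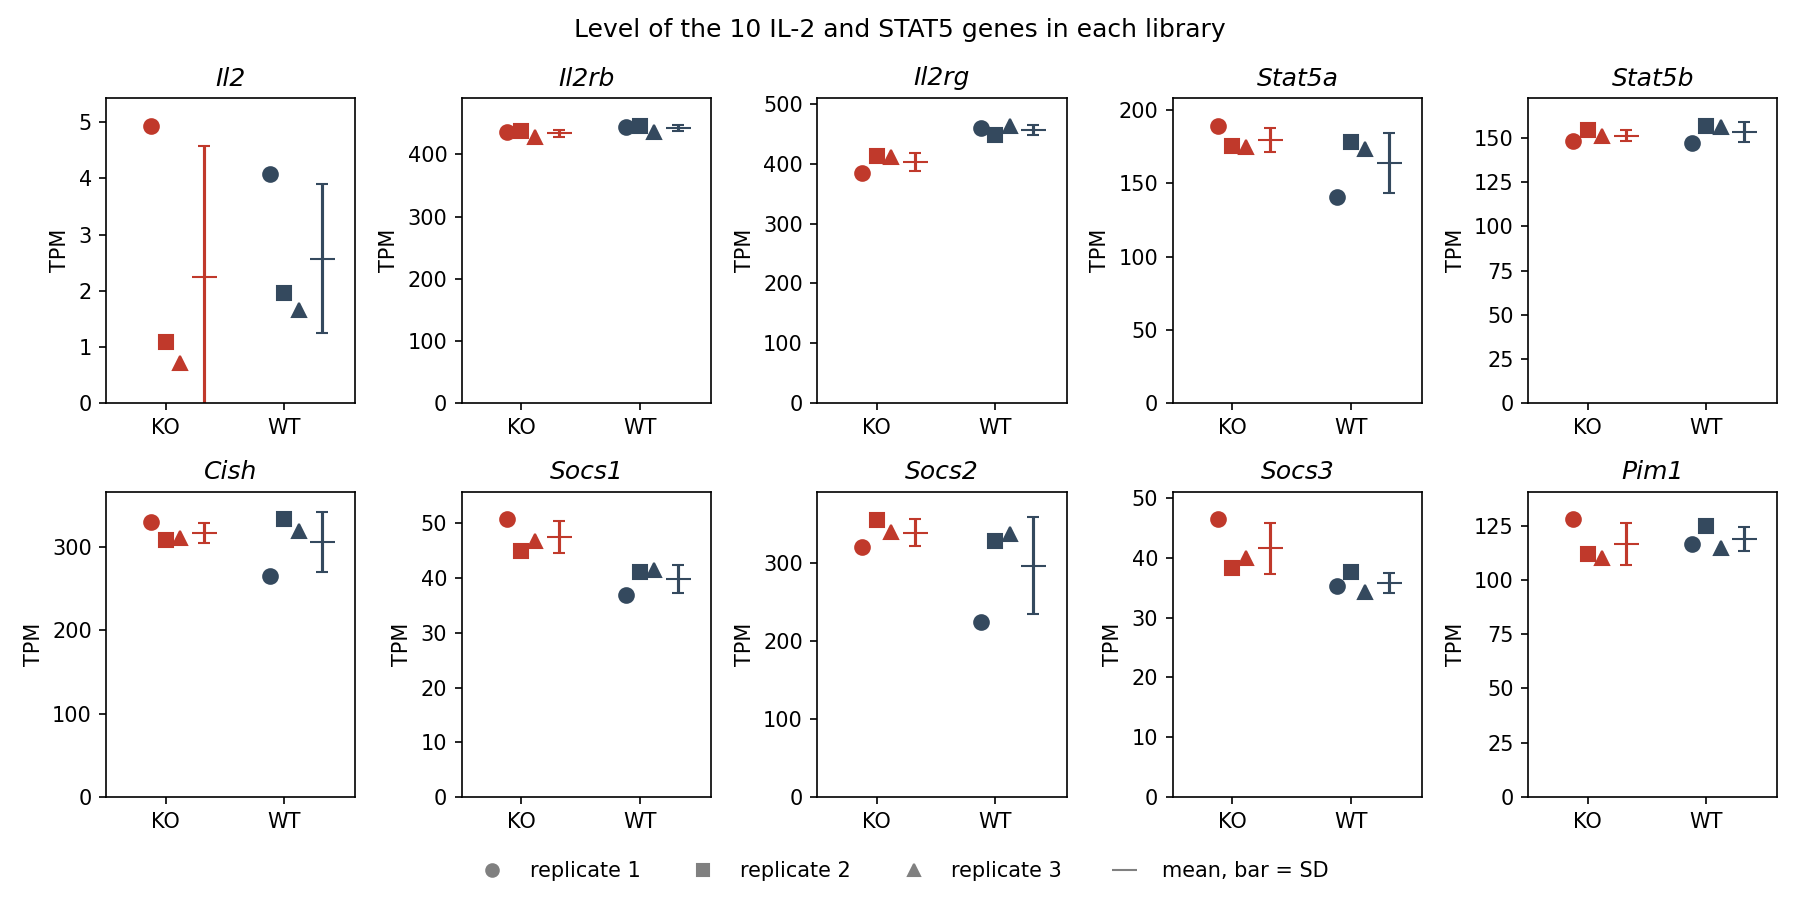
Level of each of the 10 genes in TPM, which is scaled for gene length and library size (y axis from 0, a separate scale per gene) in the KO libraries (red) and the WT libraries (blue). Symbols mark replicates 1 to 3, and the dash with its bar is the mean with 1 SD, which reaches below the axis for Il2 in KO. Il2rg was at 385 to 413 TPM in KO and 448 to 463 TPM in WT, while Il2rb overlapped at 428 to 438 TPM in KO and 436 to 446 TPM in WT.

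The genes lie on 8 chromosomes, and positions follow GENCODE M21 on GRCm38, which need not be the authors' annotation. Stat5a (chromosome 11, 100859351 to 100885169, plus strand) and Stat5b (chromosome 11, 100780731 to 100850724, minus strand) are neighbours 8627 bases apart. They are close paralogs, and their mRNAs share long identical stretches, which bears on how reads can be assigned between them. The longest is 324 bases of coding sequence, spliced across exons 7 to 9 of the longest coding Stat5a transcript (100874023 to 100874983) and exons 6 to 8 of that of Stat5b (100797741 to 100798701). Its first 300 bases are shown because any read inside them fits both genes:
Stat5a and Stat5b: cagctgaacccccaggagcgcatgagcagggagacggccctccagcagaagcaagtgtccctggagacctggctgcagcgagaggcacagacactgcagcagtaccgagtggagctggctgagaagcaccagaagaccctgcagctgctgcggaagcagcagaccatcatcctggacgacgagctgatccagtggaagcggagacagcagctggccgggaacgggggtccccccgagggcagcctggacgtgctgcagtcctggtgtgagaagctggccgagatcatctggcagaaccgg
Of all stretches of 50 bases in these transcripts, 15.8% of those in Stat5a and 11.8% of those in Stat5b occur in the other gene. Both genes have counts with decimals in the deposited tables, so their separate levels are uncertain and their sum is given beside them. Stat5a also overlaps Stat3 on the other strand by 72 bases, and Stat3 averaged 20548 counts per library. The part of that overlap in the Stat5a counts was not tested.

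STAT5 binds the palindrome TTCNNNGAA, which reads the same on both strands. The 250 bases before each RefSeq gene start (GRCm38.p6) were available for 8 of the 10 genes. The motif occurred at 1 gene, Socs3, at 154 bases before that start (chromosome 11, 117969512 to 117969520, minus strand). RefSeq and GENCODE M21 starts can differ. Some windows, those of Socs3 and Cish among them, lie inside the GENCODE spans of their genes (117966079 to 117970047 and 107296026 to 107302784). For Socs3 and Cish the bases before the GENCODE starts were thus not scanned. The 8 genes had 11 windows, of which 1 held the motif, and among all 32851 RefSeq windows of that length 7.02% did. The Socs3 stretch around it (chr11:117969482-117969550, minus strand) is shown because Socs3 is among the genes whose libraries did not overlap, with the motif in capitals:
Socs3: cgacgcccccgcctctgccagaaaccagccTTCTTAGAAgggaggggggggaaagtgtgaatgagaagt
The match is a description of these letters and says nothing of binding in these cells.

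Il2, the ligand, was the least abundant of the 10. It had 162, 23.9 and 18.1 estimated counts in KO replicates 1 to 3 and 96.1, 61.7 and 50.0 in WT replicates 1 to 3. Its level was 4.94, 1.08 and 0.707 TPM in KO and 4.09, 1.97 and 1.65 TPM in WT. The first replicate was the highest in each group, the other 2 KO libraries were the lowest of all 6, and the groups overlapped. Counting error does not cover this spread: the exact Poisson 95% interval was 4.21 to 5.76 TPM in KO replicate 1, and 0.694 to 1.61 TPM in KO replicate 2.

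The Il2 log2 fold change was -0.15 (SE 0.73, 95% interval -1.88 to 1.57, edgeR adjusted p = 0.944). Its direction rested on single libraries: with KO replicate 1 left out it was -1.51, and with the first replicate of both groups left out it was -1.03. It was above 0 with WT replicate 1 left out (0.33), and with the second (0.16) or the third (0.26) KO library left out. The adjusted p ran from 0.134 to 0.962 over the 17 alternatives. With the replicate number as a block the Il2 value was -0.51 (SE 0.34, edgeR adjusted p = 0.511). Il2 (chromosome 3, 37120523 to 37125959, minus strand) has decimals in its counts. It overlaps Adad1 on the other strand by 1408 bases, and Adad1 averaged 0.667 counts per library. KO replicate 1 also had the highest neutrophil and macrophage marker sums and WT replicate 1 the highest B cell marker sum. The part of those cells in the Il2 level was not tested.

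Il2rb, the beta chain, was the most abundant of the 10 in KO. It was at 436, 438 and 428 TPM in KO replicates 1 to 3 and at 443, 446 and 436 TPM in WT replicates 1 to 3. All 6 libraries lay close together, with a coefficient of variation of 1.30% in KO and 1.12% in WT. The Il2rb log2 fold change was 0.003 (SE 0.04, edgeR adjusted p = 0.982), and its 95% interval ran from -6.61% to 7.57%. Il2rb (chromosome 15, 78479256 to 78495271, minus strand) lies 173535 bases from Csf2rb2, a receptor chain of the IL-3 family. Csf2rb2 passed the same test as higher in KO, at 11.2 ± 2.63 CPM in KO and 3.59 ± 0.712 CPM in WT (SD, n = 3 each, edgeR adjusted p = 0.0216).

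Il2rg, the gamma chain that the IL-2 receptor shares with those of IL-4, IL-7, IL-9, IL-15 and IL-21, was lower in every KO library. It was at 385, 413 and 411 TPM in KO replicates 1 to 3 and at 459, 448 and 463 TPM in WT replicates 1 to 3. The gap between the highest KO and the lowest WT library was larger than the spread within the WT group, and KO replicate 1 was the lowest. In CPM the means were 322 ± 8.02 in KO and 371 ± 3.08 in WT (SD, n = 3 each).

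The Il2rg log2 fold change was -0.20 (SE 0.05, 95% interval -0.31 to -0.10), a difference of -13.1% with an interval from -19.3% to -6.39%. It did not pass edgeR's quasi-likelihood test after adjustment over all genes (adjusted p = 0.116). The adjusted p ran from 0.00389 to 0.341 over the alternatives. It passed with DESeq2 (-0.20, adjusted p = 0.00389) and in the edgeR fit without the first replicate of both groups (-0.18, adjusted p = 0.0485). DESeq2 called 527 genes in all, against 86 in the main fit. The fit without both first replicates also called far more genes in all, and its KO group was the closest pair of libraries. With any single library left out the Il2rg value stayed between -0.22 and -0.18. Without KO replicate 1, the library with Y-linked mRNA, it was -0.18 (edgeR adjusted p = 0.155). Il2rg is X-linked (101264378 to 101268255, minus strand). GENCODE M21 also annotates a longer gene on the same strand, Gm20489, which spans it and was not in the tables, so reads of both genes cannot be told apart here.

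Within each library the ratio of Il2rg to Il2rb TPM was 0.882, 0.943 and 0.960 in KO replicates 1 to 3 and 1.03, 1.00 and 1.06 in WT replicates 1 to 3. In TPM the gamma chain mRNA was thus below the beta chain mRNA in each KO library and above it in each WT library. In WT replicate 2 the 2 were almost equal, at 448 and 446 TPM. As Il2rb hardly differed between the groups, the ratio largely restates the Il2rg difference. The mean ratio was 0.928 ± 0.0408 in KO and 1.03 ± 0.0290 in WT (SD, n = 3 each, two-sided exact permutation p = 0.1). That is the smallest p that 3 against 3 samples allow, and it was 0.2 after adjustment over the 4 ratios computed.

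**Figure D2:**
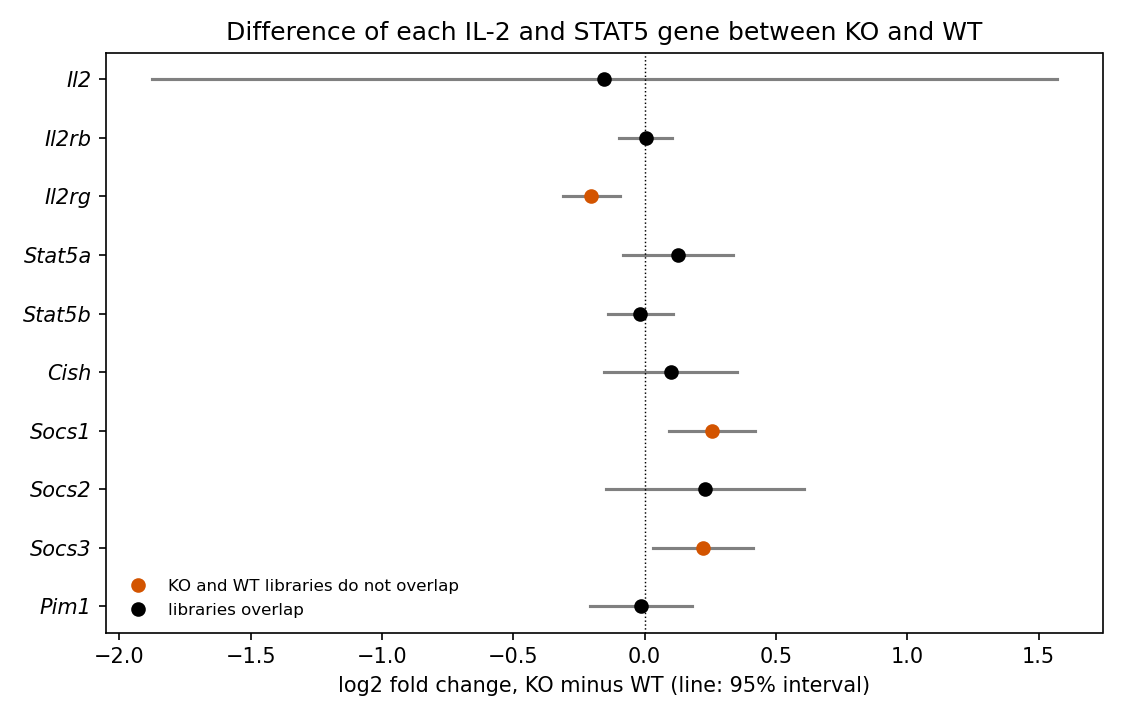
Log2 fold change of each gene, KO minus WT, from edgeR (x axis), with its 95% interval as a line. Orange points mark the genes whose KO and WT libraries did not overlap, Il2rg at -0.20, Socs1 at 0.26 and Socs3 at 0.22, and the interval of Il2 spans -1.88 to 1.57.

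Stat5a and Stat5b encode the transcription factors that the receptor activates. Stat5a was at 189, 176 and 175 TPM in KO replicates 1 to 3 and at 141, 178 and 174 TPM in WT replicates 1 to 3. WT replicate 1 was the lowest library and KO replicate 1 the highest, and the other 4 overlapped. The Stat5a log2 fold change was 0.13 (SE 0.09, 95% interval -0.08 to 0.34, edgeR adjusted p = 0.547), but 0.08 without KO replicate 1, 0.03 without WT replicate 1 and -0.01 without the first replicate of both groups.

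Stat5b was at 148, 155 and 151 TPM in KO replicates 1 to 3 and at 147, 157 and 156 TPM in WT replicates 1 to 3. The groups overlapped fully. Its log2 fold change was -0.02 (SE 0.05, edgeR adjusted p = 0.911), a difference of -1.14% with an interval from -9.21% to 7.64%. The summed level of both genes was 338, 331 and 326 TPM in KO and 288, 335 and 330 TPM in WT, so the sum differed mainly in WT replicate 1. The ratio of Stat5b to Stat5a was 0.783, 0.880 and 0.864 in KO and 1.04, 0.881 and 0.899 in WT, with KO replicate 2 and WT replicate 2 almost equal (two-sided exact permutation p = 0.1, adjusted 0.2).

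The feedback inhibitors split by level. Cish and Socs2 made up 43.9% and 44.5% of the summed TPM of the 4 inhibitor mRNAs, and Socs1 and Socs3 the small remainder at 6.16% and 5.47%. That sum was 748, 746 and 737 TPM in KO replicates 1 to 3 and 562, 739 and 732 TPM in WT replicates 1 to 3. All libraries other than WT replicate 1 lay close together.

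Cish encodes an SH2 protein that competes for docking sites on cytokine receptors and is among the best known STAT5 targets. It was at 331, 308 and 311 TPM in KO replicates 1 to 3 and at 265, 333 and 319 TPM in WT replicates 1 to 3. The groups overlapped, with WT holding both the lowest and the highest library in TPM. The Cish log2 fold change was 0.10 (SE 0.11, 95% interval -0.15 to 0.35, edgeR adjusted p = 0.706), and it turned to -0.02 without WT replicate 1.

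Socs2, an inhibitor best known for limiting growth hormone signalling, was at 321, 355 and 340 TPM in KO replicates 1 to 3 and at 224, 328 and 337 TPM in WT replicates 1 to 3. WT replicate 1 was far below the rest, and the other 5 libraries overlapped. The Socs2 log2 fold change was 0.23 (SE 0.16, 95% interval -0.15 to 0.61, edgeR adjusted p = 0.545). It was 0.05 without WT replicate 1 and 0.33 without WT replicate 3. The coefficient of variation of Socs2 in WT was 21.1%, against 5.07% in KO.

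Socs1 encodes an inhibitor that binds JAK kinases directly and is needed for stable Treg function. It was at 50.7, 44.9 and 46.7 TPM in KO replicates 1 to 3 and at 36.9, 41.1 and 41.6 TPM in WT replicates 1 to 3. Every KO library lay above every WT library. The Socs1 CPM means were 77.6 ± 4.57 in KO and 65.0 ± 4.67 in WT (SD, n = 3 each). The Socs1 log2 fold change was 0.26 (SE 0.07, 95% interval 0.09 to 0.42) and did not pass (edgeR adjusted p = 0.171). It was 0.21 without KO replicate 1, 0.20 without WT replicate 1 and 0.15 without both, which is 1.5 times or more below the value with all libraries in the last case. The adjusted p ran from 0.0625 to 0.372 over the alternatives.

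Socs3, an inhibitor induced mostly by STAT3 through receptors of the IL-6 family, was at 46.4, 38.3 and 40.0 TPM in KO replicates 1 to 3 and at 35.3, 37.6 and 34.3 TPM in WT replicates 1 to 3. The groups did not overlap, but KO replicate 2 and WT replicate 2 differed by little. The Socs3 log2 fold change was 0.22 (SE 0.08, 95% interval 0.03 to 0.41, edgeR adjusted p = 0.267). Without KO replicate 1 it was 0.14 (edgeR adjusted p = 0.468), 1.5 times or more below the value with all libraries. KO replicate 1, the highest library for Socs1 and Socs3, was also the highest for neutrophil and for monocyte and macrophage markers. Both marker sums were higher in every KO library than in every WT library, and the part of those cells was not tested.

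Pim1, a serine/threonine kinase that STAT5 induces and that promotes survival, was at 128, 112 and 110 TPM in KO replicates 1 to 3 and at 116, 125 and 115 TPM in WT replicates 1 to 3. KO held both the highest and the lowest library. The Pim1 log2 fold change was -0.01 (SE 0.08, 95% interval -0.21 to 0.18, edgeR adjusted p = 0.96), from -0.09 without KO replicate 1 to 0.05 without WT replicate 2. Pim1 (chromosome 17, 29490753 to 29496112, plus strand) lies 341773 bases from Rab44, which passed as higher in KO at 2.64 ± 1.19 CPM in KO and 0.405 ± 0.111 CPM in WT (SD, n = 3 each, edgeR adjusted p = 0.0307). Il2rb and Pim1 were the 2 of the 10 genes with a called gene within 1 Mb. No share of all tested genes with such a neighbour is given here, so the count is not a result about the 10 genes. The calls of these neighbours were lost in 8 (Csf2rb2) and 9 (Rab44) of 17 alternatives, including 4 and 5 of the 6 with a single library left out. Their log2 fold changes were 1.65 and 2.71, and 1.44 and 2.27 without KO replicate 1. That library had the highest neutrophil and macrophage marker sums, but both sums were higher in every KO library than in every WT library. Leaving out KO replicate 1 thus does not remove that difference between the groups. The part of those cells in Csf2rb2 and Rab44 was not tested.

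**Figure D3:**
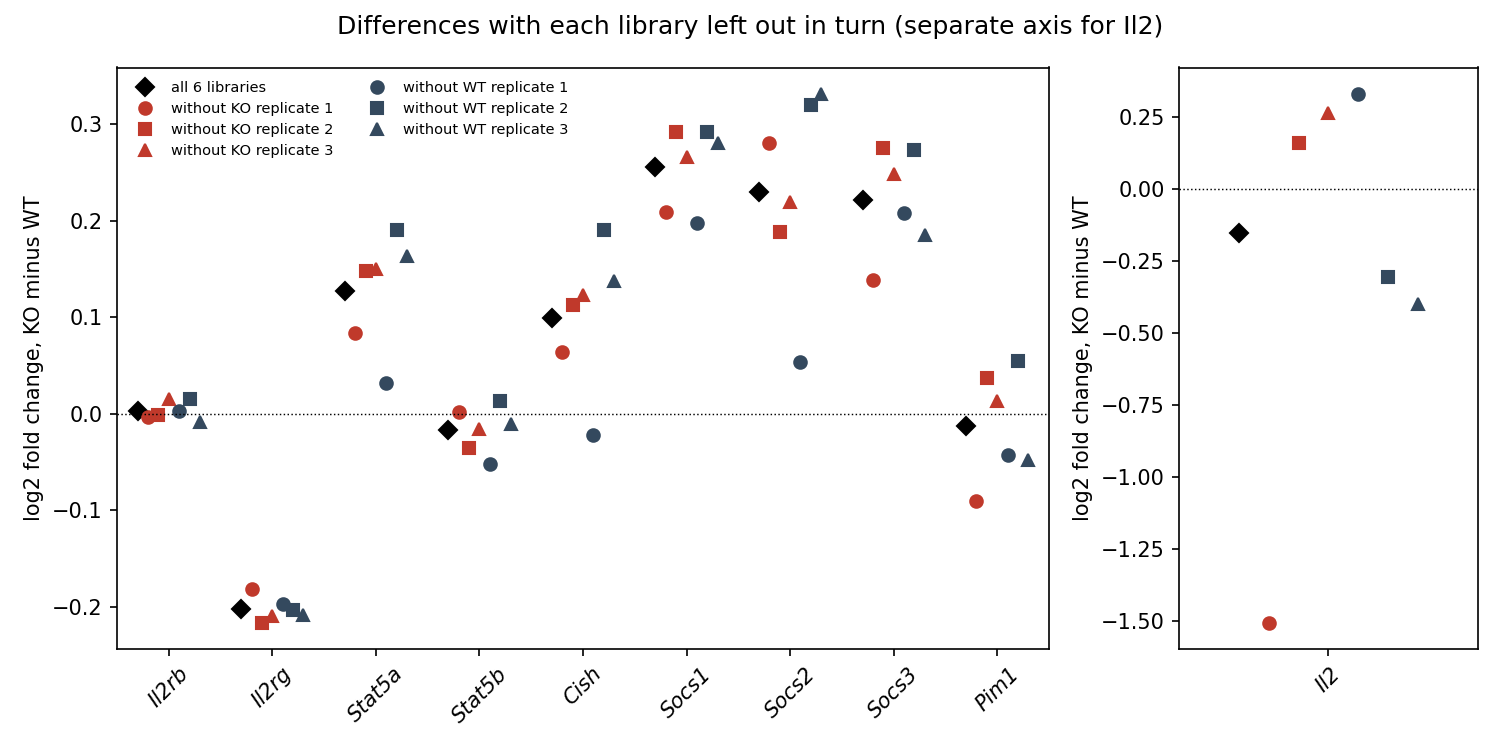
Log2 fold change, KO minus WT, of each gene with all 6 libraries (black) and with each KO (red) or WT (blue) library left out in turn, with a separate axis for Il2. Il2rg stayed between -0.22 and -0.18 and Socs1 between 0.20 and 0.29, while Socs2 dropped to 0.05 and Cish to -0.02 without WT replicate 1, and Il2 ran from -1.51 to 0.33.

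WT replicate 1 was the lowest of the 6 libraries for 5 of the 10 genes in CPM (Stat5a, Stat5b, Cish, Socs1 and Socs2), against 23.6% of all tested genes. KO replicate 1 was the highest for 6 (Il2, Stat5a, Cish, Socs1, Socs3 and Pim1), against 27.9% of all tested genes. These counts were not tested against those shares. Il2rg went the other way, with WT replicate 1 the highest library and KO replicate 1 the lowest. By mean TPM the order in KO was Il2rb (434), Il2rg (403), Socs2 (338), Cish (316), Stat5a (180), Stat5b (151), Pim1 (117), Socs1 (47.5), Socs3 (41.6) and Il2 (2.24). In WT it was Il2rg (457), Il2rb (442), Cish (306), Socs2 (296), Stat5a (164), Stat5b (153), Pim1 (119), Socs1 (39.9), Socs3 (35.7) and Il2 (2.57). Socs2 and Cish overlapped within each group, as did Socs1 and Socs3. Stat5a and Stat5b overlapped in WT but not in KO.

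The wider pathway was read from 7 lists with 95 genes in all, of which 93 were tested. Of these 1 rose, Bcl2, 0 fell and 92 did not pass, 1.08% called against 0.674% of all tested genes. At an unadjusted p under 0.05 there were 13 of 93 (14.0%, against 15.1%), and 21.5% did not overlap, against 22.8%. Bcl2, the anti-apoptotic factor induced by IL-2, was at 366, 346 and 358 CPM in KO replicates 1 to 3 and at 283, 280 and 282 CPM in WT replicates 1 to 3 (log2 fold change 0.34, edgeR adjusted p = 0.0289). Its edgeR adjusted p was 0.0401 without KO replicate 1, and above the threshold without any other single library (0.0501 to 0.152), at a log2 fold change of 0.34 to 0.36. Its list, of 24 other STAT5 or IL-2 target genes, had a median log2 fold change of -0.08, with 10 above and 14 below 0 and 23 that did not pass.

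Among 10 gamma chain receptors and kinases 0 passed and the median log2 fold change was 0.02. Jak1, the kinase bound to the beta chain, was at 548, 514 and 529 CPM in KO and 483, 500 and 485 CPM in WT (0.12, SE 0.05, edgeR adjusted p = 0.314), without overlap. Il7r, the IL-7 receptor alpha chain, was at 0.22 (adjusted p = 0.363 by edgeR). Of 5 gamma chain cytokines 3 were tested, as Il7 and Il15 were too low, and 0 passed, with all 3 below 0 and a median of -0.82. Il9, a mast cell and T cell cytokine, was at 8.38, 13.2 and 12.6 CPM in KO and at 7.99, 35.1 and 28.4 CPM in WT (-1.08, SE 0.53, edgeR adjusted p = 0.406). WT replicate 1 was thus the lowest Il9 library, below all KO libraries. Il9 passed as lower in KO without WT replicate 1 (-1.49, edgeR adjusted p = 0.0465) and without the first replicate of both groups (-1.30, edgeR adjusted p = 0.00214). Il21, of follicular helper cells, was at 0.308 ± 0.0445 CPM in KO and 0.551 ± 0.192 CPM in WT (SD, n = 3 each, edgeR adjusted p = 0.35).

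Among 5 other STATs 0 passed (median 0.03), with Stat3 at -0.10 and Stat2 at 0.20. Among 13 other SOCS genes, phosphatases and PIAS genes 0 passed (median -0.002). Pias1, a SUMO ligase that restrains STAT activity, was at 64.1, 59.4 and 59.0 CPM in KO and 53.2, 53.3 and 53.8 CPM in WT (0.19, SE 0.05, edgeR adjusted p = 0.171), without overlap, and Pias3 was at 0.22. Among 25 genes of the RAS-MAPK and PI3K arms 0 passed (median 0.03), with Sos1 at 0.11 and Pik3r1 at 0.15. Among 14 regulators of Il2 transcription 0 passed (median -0.002). Ikzf3, which encodes Aiolos, a repressor of Il2, was at 274, 230 and 240 CPM in KO and 191, 182 and 186 CPM in WT (0.41, SE 0.07, edgeR adjusted p = 0.0572), without overlap. Ikzf3 passed as higher in KO in 5 of 17 alternatives, among them with DESeq2 (adjusted p = 3.4e-05), with no low-count filter (edgeR adjusted p = 0.0292), without KO replicate 1 (edgeR adjusted p = 0.0431) and without the first replicate of both groups (edgeR adjusted p = 0.00521). Jun, an AP-1 subunit, was at 0.26 (adjusted p = 0.232 by edgeR).

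**Figure D4:**
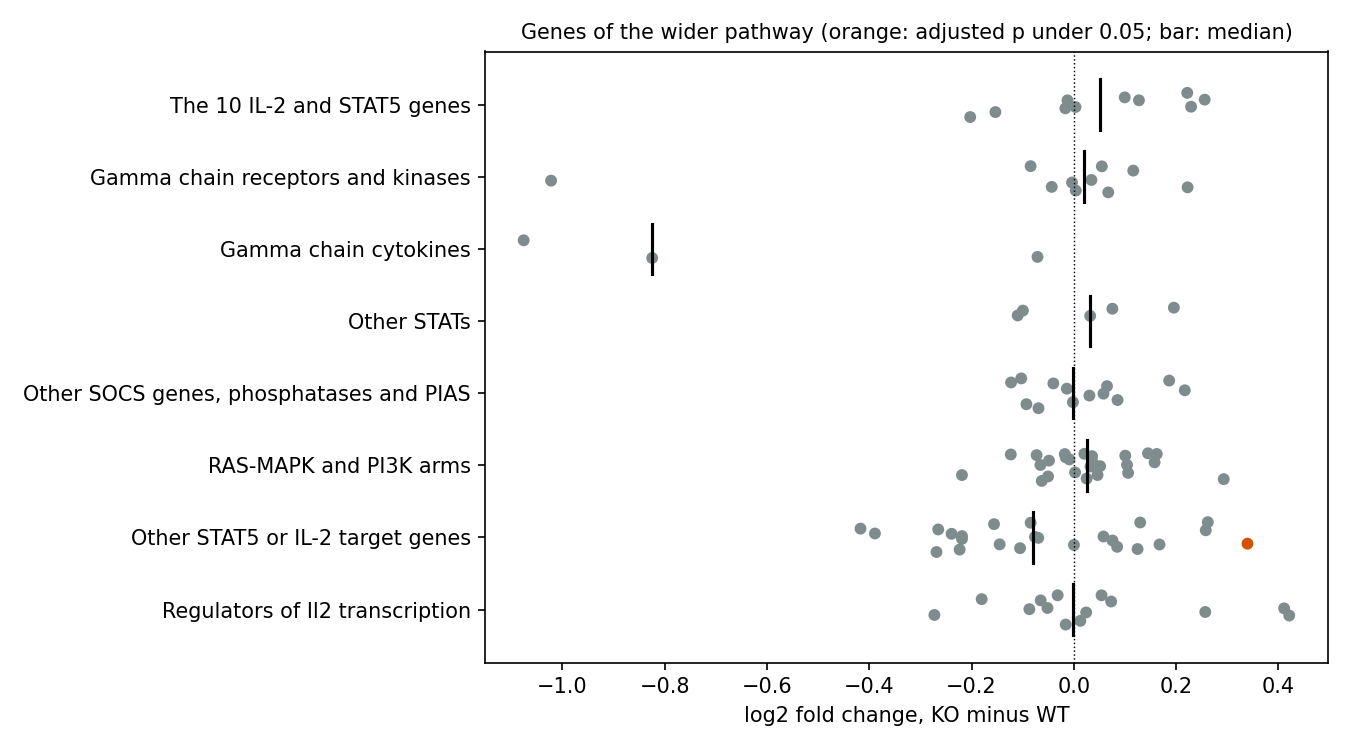
Log2 fold change, KO minus WT, of each tested gene (points) in the 10 IL-2 and STAT5 genes and in 7 lists of the wider pathway, with the list median as a black bar. Bcl2, at 0.34, is the 1 orange point (adjusted p under 0.05), and list medians lie between -0.08 and 0.05 apart from the 3 gamma chain cytokines at -0.82.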

How the data were processed

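Per the submitters' processing notes, reads were checked with FastQC and aligned with HISAT2 (versions not given). The counting program, its annotation and the build were not given in the sources used here. The deposited tables of the authors hold, per sample, estimated counts per gene and TPM, a level scaled for gene length and depth. Libraries held 33590510 to 49772670 estimated counts.

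Expected counts were rounded to whole numbers, filtered with edgeR's filterByExpr (12768 of 21899 genes kept) and scaled by TMM. KO and WT were compared in edgeR 4.0.16 with its quasi-likelihood F test (two-sided, robust, genotype as the single term), with Benjamini-Hochberg adjustment over all tested genes and a threshold of 0.05. CPM values are TMM-scaled. Levels between genes are compared in TPM. The intervals of Il2 counts cover counting error only. The alternatives used DESeq2 1.42.0, limma 3.58.1 on log2(TPM + 1) or log2(TPM + 0.1), other filters and scalings, a replicate block and left-out libraries. The edgeR fit was tested on simulated counts, drawn independently for each library. R 4.3.3 and Python 3.11.15 were used.

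The 10 genes, the 7 pathway lists and the marker lists were chosen with earlier results of these data known. All 10 genes are named, and in each pathway list the called genes or, where none passed, the 2 of smallest p. Eif2s3y and Ikzf2 were chosen after their values were seen. The marker lists of T cells, Treg cells, CD8 and NK cells, dendritic cells and mast cells had 0, 1, 0, 1 and 1 called genes. Those of neutrophils, of monocytes and macrophages, and of B cells had 0, 1 and 0. Promoter windows are from RefSeq (GRCm38.p6).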

Additional observations from a re-analysis of the deposited data

How the results depend on the processing

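Of the 10 IL-2 and STAT5 genes 1, Il2rg, passed with DESeq2 and 1, Il2rg, without the first replicate of both groups, and 0 passed in the other 15 alternatives. Genes called in all numbered 86, against 527 with DESeq2, 133 with no low-count filter, 36 with limma on log2(TPM + 1), 6 with limma and no filter on low values, 538 without the first replicate of both groups, 8 with KO replicates 2 and 3 summed, and 4 to 93 with single libraries left out. Pathway genes called numbered 1, against 2 with DESeq2, 2 with no low-count filter, 0 with limma and no filter, 5 without the first replicate of both groups, 0 with KO replicates 2 and 3 summed, and 0 to 2 with single libraries left out. The pathway gene called was Bcl2 with all libraries, and Il9 (lower in KO) without WT replicate 1. Of the 5 without the first replicate of both groups, 2 are higher in KO (Bcl2 and Ikzf3) and 3 lower (Bcl2l1, Il9 and Lta). Both genes with DESeq2, with no low-count filter, and without KO replicate 1 are Bcl2 and Ikzf3. The cause was not tested. In the fit without the first replicate of both groups the KO group was replicates 2 and 3, the closest pair. Calls of single genes there, such as Il2rg, Dlst, Il9, Ikzf3, Lta and Bcl2l1, stand among the 538.

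With the replicate number as a block, 177 genes, 2 pathway genes and 0 of the 10 genes were called, the 2 being Bcl2 and Ikzf3 (adjusted p = 0.0440 for Ikzf3 in the edgeR fit with the block). Same-numbered samples had correlations of their deviations from the group means of 0.184, 0.0780 and 0.0841. The first replicates of both groups had the highest value of all pairs. Their pairs with other replicates were at -0.145 to -0.100. KO replicate 3 correlated best with WT replicate 2 (0.112). These values do not decide whether the numbers pair the samples, and the main fit used genotype alone.

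Signs turned for log2 fold changes near 0. Il2rb was at -0.0263 with limma on log2(TPM + 1), with or without the filter on low values, at -0.02635 with limma on log2(TPM + 0.1), and at -0.00412 without the first replicate of both groups, where Stat5a was at -0.0118, Cish at -0.0577 and Il9r at 0.0210. With KO replicates 2 and 3 summed Il2 was at 0.167 and Pim1 at 0.0248. With single libraries left out Il2 ran from -1.51 to 0.331, Il2rb from -0.00839 to 0.0155, Stat5b from -0.0523 to 0.0138, Pim1 from -0.0904 to 0.0549 and Cish from -0.0220 to 0.191. Il2rg, Socs1, Socs2 and Socs3 kept their direction in all 17 alternatives.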

Other observations

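Il9r, the receptor chain that pairs with the common gamma chain to bind IL-9, was at 0.798, 1.22 and 0.978 CPM in KO replicates 1 to 3 and at 3.97, 1.21 and 0.947 CPM in WT replicates 1 to 3. WT replicate 1, the highest library for Il9r, was the lowest for Il9, and the other 5 libraries overlapped. The Il9r log2 fold change was -1.02 (SE 0.55, edgeR adjusted p = 0.433), and -0.12 without WT replicate 1. Il7 and Il15, whose products also signal through the gamma chain, were at 0.0299 CPM or less and at 0.213 CPM or less in all 6 libraries. Lta, a lymphotoxin gene counted among IL-2 targets, was at 534, 604 and 572 CPM in KO and at 484, 797 and 709 CPM in WT, with WT replicate 1 again the lowest library. Its log2 fold change was -0.22 (SE 0.17, edgeR adjusted p = 0.588), and Lta passed as lower in KO without the first replicate of both groups (-0.36, edgeR adjusted p = 0.0237). Bcl2l1, a survival factor, was at 93.4, 82.7 and 81.4 CPM in KO and at 90.4, 112 and 97.5 CPM in WT, with a log2 fold change of -0.22 (SE 0.09, edgeR adjusted p = 0.312). Bcl2l1 passed as lower in KO without the first replicate of both groups (-0.35, edgeR adjusted p = 0.0327). These 3 genes and the pair Il7 and Il15 were chosen after their values were seen.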
